A study of Mus musculus with 16 samples.

Results

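Long noncoding RNAs that stay in the nucleus were followed in the P7 cortex of mice with early life pain. The set held 8 of the 36930 entries of the gene table: Malat1, Neat1, Meg3, Miat, Rian, Mirg, Snhg11 and Kcnq1ot1. Members were taken by name, and Malat1 leads them because it was selected on its lower CPM in the Avil-ChR2 pups of this study, so the genotype values of Malat1 are given as a description without a test. The question asked here was whether Malat1 varied together with the other members among pups. Of the 8 members, 7 had a value in all 16 pups and passed the filter on low values, whereas Kcnq1ot1 had no value in any pup.

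RNAseq was done in 8 Avil-ChR2 pups and 8 ChR2-flfl pups. All pups carried the Ai27D transgene in Rosa26, a channelrhodopsin fused to td-Tomato behind a floxed STOP cassette, on a C57BL6 background. Avil-ChR2 pups also had Cre under the advillin (Avil) promoter, which is active in primary sensory neurons outside the brain, and ChR2-flfl pups were Cre-negative litter mates. Both genotypes were placed in blue light for 1 h per day from P1 to P5, and cortices were taken at P7. Light was meant to act on peripheral sensory nerve endings, and the cortex was sampled after a light-free interval. No pups without light were sequenced, so the Avil-Cre genotype and the stimulation by light cannot be told apart. Levels are CPM, which are reads of a gene scaled to a common library size by the authors with the TMM method of edgeR. The reads per pup worked out from the CPM steps ranged from 30549126 in ChR2-flfl replicate 3 to 48711134. The Avil transcript, which checks the labels, was at 0.825 to 1.46 CPM in ChR2-flfl pups and at 37.3 to 46.4 CPM in Avil-ChR2 pups. Summed excitatory neuron markers of the cortex ranged from 1875 to 2202 CPM over all pups, and summed choroid plexus markers from 2.47 to 6.53 CPM. Pups were numbered in 2 runs, 26 to 33 and 35 to 42, with 4 of each genotype in each run. The sex labels of 1 pup (Avil-ChR2 replicate 4) differed from the sex in the study's supplement, and its Ddx3y level of 54.7 CPM was in the male range.

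Nuclear long noncoding RNAs act as scaffolds rather than messages. Malat1 is an abundant component of nuclear speckles, the sites where splicing factors are stored, and Neat1 builds the paraspeckles that lie beside them. Meg3, Rian and Mirg are expressed from the maternal copy of the imprinted Dlk1-Dio3 domain, and Rian and Mirg carry small nucleolar RNAs and microRNAs in their introns and exons. Miat, also called Gomafu, is a neuronal RNA that binds splicing regulators, Snhg11 is a small nucleolar RNA host gene that is strong in neurons, and Kcnq1ot1 is the antisense RNA that silences the imprinted Kcnq1 domain.

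Mature Malat1 has no poly(A) tail. Its 3′ end is protected by a triple helix in which an encoded stretch of A takes part, and the libraries were made with a poly(A)-selecting mRNA kit. In the longest GENCODE transcript of 6983 bases this stretch lies at bases 6665 to 6694, at chr19:5795979-5796008 on the minus strand of GRCm38, and its run of 12 A is in capitals here.
Malat1 A stretch: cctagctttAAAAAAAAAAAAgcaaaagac

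The promoters of Malat1 and of Meg3, the member closest to it among pups, are shown from 250 bases before to 50 bases after the start, as RefSeq gives them for GRCm38.p6. RefSeq promoters were found for 7 of the 8 members. The letters of the TATA box (TATAAA), the CAAT box (CCAAT), the GC box (GGGCGG) and the cAMP response element (TGACGTCA) were searched on both strands, and matches are in capitals. The Malat1 promoter at chr19:5802623-5802922 (minus strand) held none of them. The first Meg3 promoter at chr12:109540746-109541045 (plus strand) held 1 CAAT box, 1 cAMP response element and a palindromic stretch that matches the TATA box on either strand, so 2 matches overlap there. Over all 32851 promoters of that length, 13.6% held the TATA box letters, 37.4% those of the CAAT box, 35.7% those of the GC box and 1.79% those of the cAMP response element. These are matches of letters and no evidence of a bound factor.
Malat1 promoter: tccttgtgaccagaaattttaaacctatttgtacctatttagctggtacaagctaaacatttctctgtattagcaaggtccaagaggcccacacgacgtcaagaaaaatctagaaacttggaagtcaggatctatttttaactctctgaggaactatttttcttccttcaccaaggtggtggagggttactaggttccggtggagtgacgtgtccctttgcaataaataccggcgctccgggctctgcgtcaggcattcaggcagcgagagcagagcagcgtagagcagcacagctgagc
Meg3 promoter: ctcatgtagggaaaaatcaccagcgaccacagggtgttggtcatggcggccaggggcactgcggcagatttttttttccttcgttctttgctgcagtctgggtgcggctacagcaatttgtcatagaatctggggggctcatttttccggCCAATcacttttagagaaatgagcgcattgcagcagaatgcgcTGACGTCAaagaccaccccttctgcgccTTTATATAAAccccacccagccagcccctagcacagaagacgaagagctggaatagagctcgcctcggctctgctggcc

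Meg3, Rian and Mirg span 2, 3 and 10 microRNA genes, respectively, which give 28 mature microRNAs in RefSeq. The following 4 are shown because they represent each host and because the first pair, both from Mirg, shares its seed (bases 2 to 8, in capitals). All 15 microRNA entries were without a value in every pup, so the hosted small RNAs were not measured by these libraries.
miR-453 (Mirg, chr12:109735669-109735692, plus strand): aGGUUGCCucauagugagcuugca
miR-496a-5p (Mirg, chr12:109739132-109739152, plus strand): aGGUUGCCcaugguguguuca
miR-770-5p (Meg3, chr12:109563710-109563731, plus strand): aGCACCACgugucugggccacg
miR-370-3p (Rian, chr12:109618305-109618326, plus strand): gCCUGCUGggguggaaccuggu

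Per kilobase of annotated exon, Meg3 was the most abundant of the measured members and Neat1 the least. In ChR2-flfl pups Meg3 was at 97.6 ± 7.57 CPM per kb (SD, n = 8), followed by Snhg11 at 85.4 ± 10.7, Miat at 61.3 ± 6.39, Rian at 48.9 ± 2.89 and Malat1 at 43.7 ± 12.7 CPM per kb. Mirg followed at 7.71 ± 0.684 and Neat1 at 1.94 ± 0.329 CPM per kb. The order of neighbours was the same in all 8 ChR2-flfl pups for each neighbouring pair except Rian and Malat1, for which Rian was higher in 5 of 8 pups. In Avil-ChR2 pups Rian was above Malat1 in 8 of 8 pups, with Malat1 at 29.6 ± 4.22 CPM per kb. Meg3 and Snhg11 were close, with a mean log2 ratio of 0.20 ± 0.13 (SD) in ChR2-flfl pups. Divided by the genomic span in place of exons, Snhg11 (69.2 CPM per kb) stood above Meg3 (57.4 CPM per kb) and Rian was at 15.4 CPM per kb. The order therefore depends on the length used. The levels come from poly(A)-selected libraries, and mature Malat1 has no poly(A) tail. Its place in the order holds for these libraries only.

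The entries do not cover every isoform. The Neat1 entry at chr19:5842302-5845478 spans 3177 bp, which is the short polyadenylated form, while GENCODE starts the long paraspeckle form at 5824708. Malat1 lies on the same strand at chr19:5795690-5802671, and neither entry overlaps another entry. The reads of Malat1 and Neat1 were even numbers in all 32 values, as in 63 of the 12946 genes (0.487%) with at least 100 reads in every pup. Across all values of at least 100 reads 50.3% were even. The genes with even numbers throughout had a median span of 1742 bp against 27074 bp. How any mates of a read pair were counted is not given in the sources used here. The number of fragments behind a Malat1 or Neat1 value may therefore be smaller than its number of reads.

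Of the 7 measured members Malat1 had the largest difference between genotypes, and this difference had served to select it. In ChR2-flfl pups Malat1 ranged from 202 to 452 CPM with a median of 259 CPM, and in Avil-ChR2 pups from 179 to 265 CPM with a median of 195 CPM. The ChR2-flfl mean of 305 CPM was reached by 0 of 8 Avil-ChR2 pups, 6 of them were below the lowest ChR2-flfl pup, and 3 ChR2-flfl pups at 384, 386 and 452 CPM were above the highest Avil-ChR2 pup, so the groups overlapped. The log2 difference was -0.53 (SE 0.14). It was -0.72 in pups 26 to 33, with 187 ± 5.48 CPM in Avil-ChR2 against 325 ± 114 CPM in ChR2-flfl pups (SD, n = 4 each). In pups 35 to 42 it was -0.33, with 226 ± 31.6 CPM against 286 ± 66.5 CPM. The spread of the log2 level was 0.41 (SD) in ChR2-flfl pups and 0.19 (SD) in Avil-ChR2 pups. In whole cortex, fewer cells that express the RNA and less RNA per cell cannot be told apart. Mature Malat1 has no poly(A) tail, and a difference between libraries in its capture by the poly(A)-selecting kit was not tested.

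**Figure D1:**
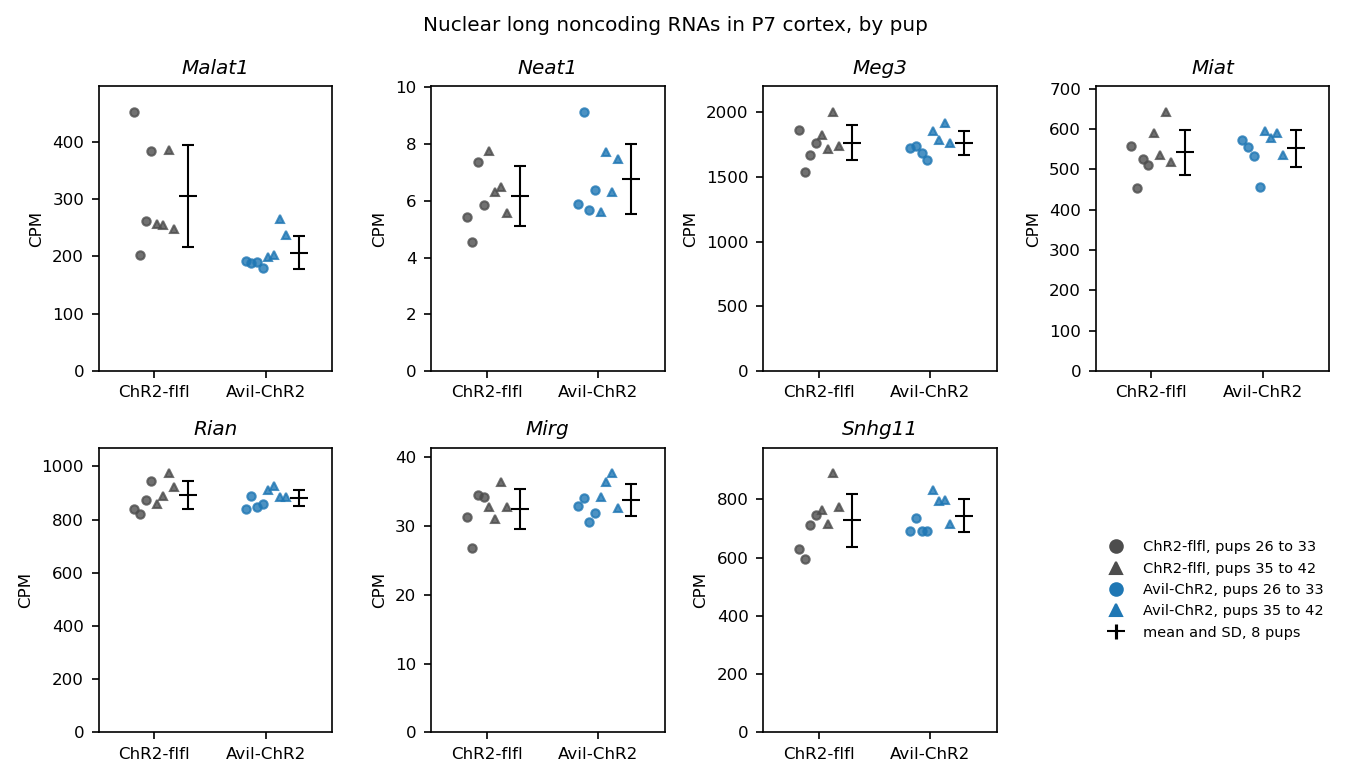
CPM (y axis, from 0) of the 7 measured lncRNAs in 8 ChR2-flfl (grey) and 8 Avil-ChR2 (blue) pups, with circles for pups 26 to 33, triangles for pups 35 to 42, and a bar for the mean and SD. For Malat1, 6 Avil-ChR2 pups lie below the lowest ChR2-flfl pup at 202 CPM, whereas for the other 6 members the genotypes lie over each other.

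None of the other 6 measured members passed the genotype test in the fit over all genes (limma, Benjamini-Hochberg adjusted p of at least 0.952 for each), and 0 of 6 had an unadjusted p under 0.05. Over all 21183 genes tested, 2 were called at an adjusted p under 0.05 (0.00944%) and 1145 had an unadjusted p under 0.05 (5.41%). The voom variant of limma on reads also called 0 of the 6.

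Of the imprinted members, Meg3 ranged from 1542 to 2003 CPM (median 1749) in ChR2-flfl pups and from 1631 to 1916 CPM (median 1752) in Avil-ChR2 pups. The log2 difference was 0.00038 (SE 0.044), and only 0.453% of the genes had a smaller one. Rian ranged from 822 to 974 CPM (median 882) and from 841 to 928 CPM (median 885), with a log2 difference of -0.02 (SE 0.034). Both ranges in Avil-ChR2 pups lay inside those of ChR2-flfl pups. Mirg, the microRNA host, ranged from 26.8 to 36.4 CPM (median 32.7) and from 30.7 to 37.6 CPM (median 33.5), with a log2 difference of 0.06 (SE 0.054).

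Miat ranged from 453 to 642 CPM (median 531) in ChR2-flfl pups and from 455 to 595 CPM (median 564) in Avil-ChR2 pups, with a log2 difference of 0.03 (SE 0.061). Snhg11 ranged from 594 to 889 CPM (median 730) and from 691 to 831 CPM (median 725), with a log2 difference of 0.04 (SE 0.065). Neat1, the paraspeckle member, ranged from 4.56 to 7.76 CPM (median 6.08) and from 5.60 to 9.14 CPM (median 6.36). Its log2 difference of 0.13 (SE 0.11) had the opposite sign to that of Malat1 and did not pass the test. No member was called for a difference of the genotype effect between runs of pup numbers or between sexes in limma interaction terms (adjusted p of at least 0.826), and 0 of 21183 genes were called for these terms.

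The member closest to Malat1 among pups was Meg3. ChR2-flfl replicate 2 had both the lowest Malat1 level of its genotype (202 CPM) and the lowest Meg3 level of all pups (1542 CPM). ChR2-flfl replicates 1 and 7, at 452 and 386 CPM of Malat1, had 1860 and 2003 CPM of Meg3. In Avil-ChR2 pups, replicate 7 was the highest and replicate 4 the lowest for both RNAs (265 and 179 CPM of Malat1, 1916 and 1631 CPM of Meg3). Relative to the mean of each genotype, the correlation was r = 0.75 and rho = 0.73 (n = 16, two-sided permutation of pups within genotypes, p = 0.0021 and 0.0026). It was r = 0.76 in ChR2-flfl pups (rho = 0.76, n = 8, exact permutation p = 0.024 and 0.037) and r = 0.75 in Avil-ChR2 pups (rho = 0.83, n = 8, exact permutation p = 0.033 and 0.015). Within the runs it was 0.95 and 0.80, and without the 2 pups farthest from the median Malat1 level (ChR2-flfl replicates 1 and 7) it was 0.65. Leaving out 1 pup gave r between 0.65 and 0.80. On the log2 scale Meg3 differed by 0.22 (SE 0.056) per unit of Malat1. In the fit over all genes this slope had an unadjusted p of 0.00085 and an adjusted p of 0.191 (limma, Benjamini-Hochberg over 21182 genes), so Meg3 was not called.

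**Figure D2:**
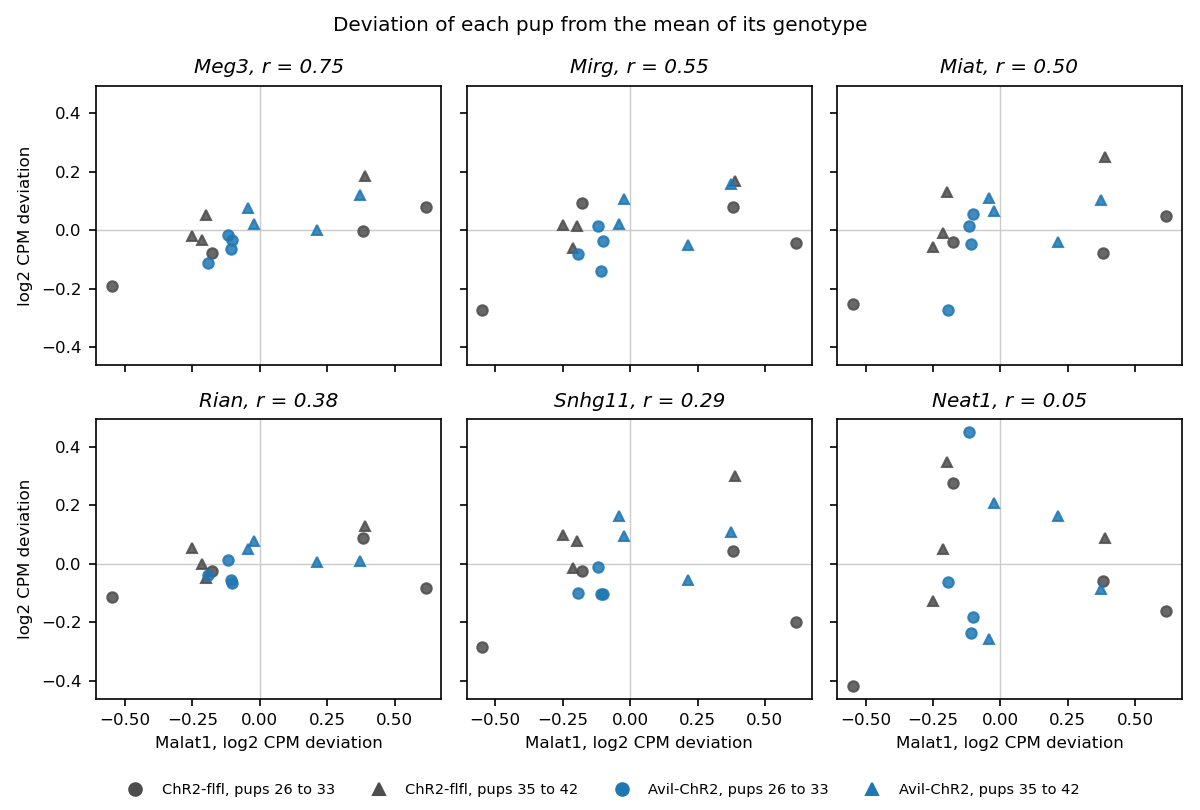
Deviation of log2 CPM from the genotype mean, Malat1 on the x axis and 1 of the other 6 lncRNAs on the y axis of each panel, 1 point per pup (grey ChR2-flfl, blue Avil-ChR2, circles pups 26 to 33, triangles pups 35 to 42). Meg3 follows Malat1 (r = 0.75), Neat1 is scattered (r = 0.05), and the lowest point on the x axis is ChR2-flfl replicate 2.

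Of the 6 members, 0 were called for the slope on Malat1 at an adjusted p under 0.05, where 8 of 21182 genes were called (0.0378%). At an unadjusted p under 0.05, 3 of 6 had a positive slope, Meg3, Mirg and Miat, against 5.28% of all genes. The slope of Mirg was 0.20 (SE 0.080, unadjusted p = 0.021, limma adjusted p = 0.513), with r = 0.55 and rho = 0.48 (permutation p = 0.046 and 0.065). The slope of Miat was 0.22 (SE 0.091, unadjusted p = 0.028, limma adjusted p = 0.539), with r = 0.50 and rho = 0.42 (permutation p = 0.069 and 0.14). For Rian r was 0.38 and rho 0.34 (permutation p = 0.24 and 0.26), for Snhg11 0.29 and 0.22 (permutation p = 0.38 and 0.44), and for Neat1 0.05 and 0.04 (permutation p = 0.86 and 0.90). The limma slopes of the 6 members were adjusted over all genes and not over the members. The permutation p-values of r and rho were not adjusted. Without the same 2 pups r was 0.67 for Mirg, 0.36 for Miat, 0.61 for Rian, 0.51 for Snhg11 and 0.17 for Neat1. No slope of the 6 members was called as different between genotypes in a limma interaction term (adjusted p of at least 0.974). Over all 21182 genes, 1 was called for this term.

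The slopes of Mirg and Miat stayed positive with each pup left out in turn and were lowest without ChR2-flfl replicate 2, at 0.11 for Mirg (limma unadjusted p = 0.21) and 0.14 for Miat (limma unadjusted p = 0.18). Without ChR2-flfl replicate 7 they were 0.17 and 0.16 (limma unadjusted p = 0.061 and 0.10), and without Avil-ChR2 replicate 7 they were 0.17 and 0.21 (limma unadjusted p = 0.057 and 0.051), closer to the values with all pups. Without ChR2-flfl replicate 1, the pup with the highest Malat1 level, the slopes were 0.32 for Mirg and 0.28 for Miat, and those of Rian (0.18) and Snhg11 (0.34) also had an unadjusted p under 0.05. Across the pups left out in turn, r was lowest for every member without ChR2-flfl replicate 2, at 0.34 for Mirg, 0.33 for Miat, 0.19 for Rian, 0.03 for Snhg11 and -0.24 for Neat1.

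All 6 correlations were positive with a median of 0.44, whereas the median over all genes was -0.01 and 48.5% were above 0. The 5th and 95th percentiles over all genes were -0.46 and 0.52. Meg3 was above 99.6% of the genes, Mirg above 95.7%, Miat above 94.2%, Rian above 88.1%, Snhg11 above 82.5% and Neat1 above 57.5%.

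**Figure D3:**
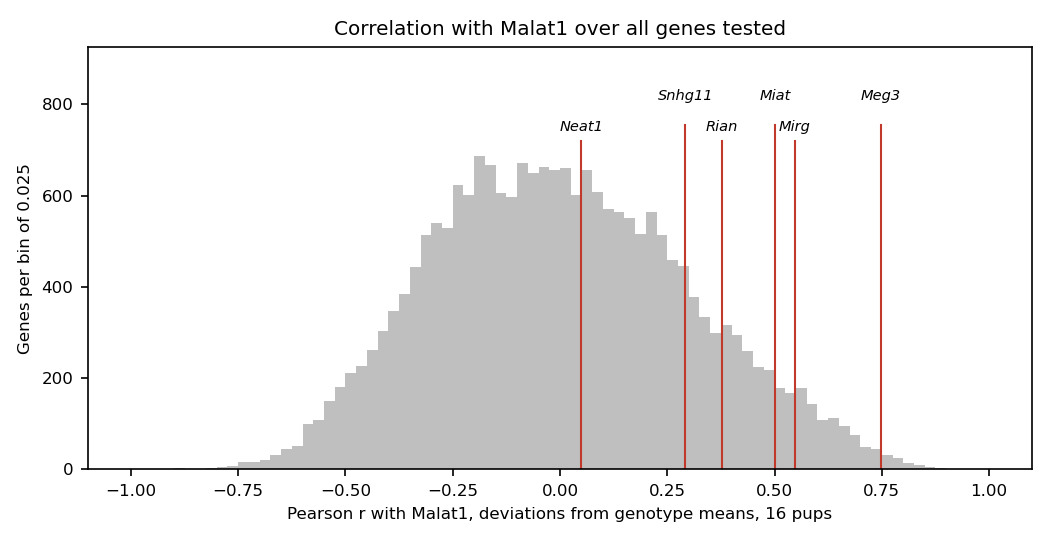
Histogram of Pearson's r with Malat1 (x axis, deviations from genotype means, 16 pups) over 21182 genes (y axis, genes per bin), with red lines for the 6 members. Meg3 lies in the upper tail at 0.75, Mirg and Miat lie at 0.55 and 0.50 near the 95th percentile of 0.52, and Neat1 lies in the middle at 0.05.

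Except for Neat1, the other members mostly had higher values with each other than with Malat1. Over the 21 pairs of the 7 measured members the median r was 0.55 and all were positive. Among Meg3, Miat, Rian, Mirg and Snhg11 (10 pairs) the median was 0.75, with a range from 0.47 for Miat and Rian to 0.89 for Meg3 and Miat. Rian and Snhg11 followed at 0.87 and Mirg and Snhg11 at 0.83. Over all 114556816 pairs of the 15137 genes with a mean log2 level of at least 0, 0.861% were at 0.75 or higher (at least the median of these 10 pairs). The 3 members of the Dlk1-Dio3 domain were not closer to each other (0.58, 0.75 and 0.75) than to Snhg11 on chromosome 2 (0.74, 0.83 and 0.87) in these values. Neat1 had the lowest values, from 0.05 with Malat1 to 0.50 with Mirg. These values share libraries and scaling and were not tested. The run of pup numbers was not removed from them. Meg3, Miat, Rian, Mirg and Snhg11 each had a higher mean in pups 35 to 42 than in pups 26 to 33 in both genotypes. For Snhg11 the means were 785 against 670 CPM in ChR2-flfl pups and 784 against 702 CPM in Avil-ChR2 pups.

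**Figure D4:**
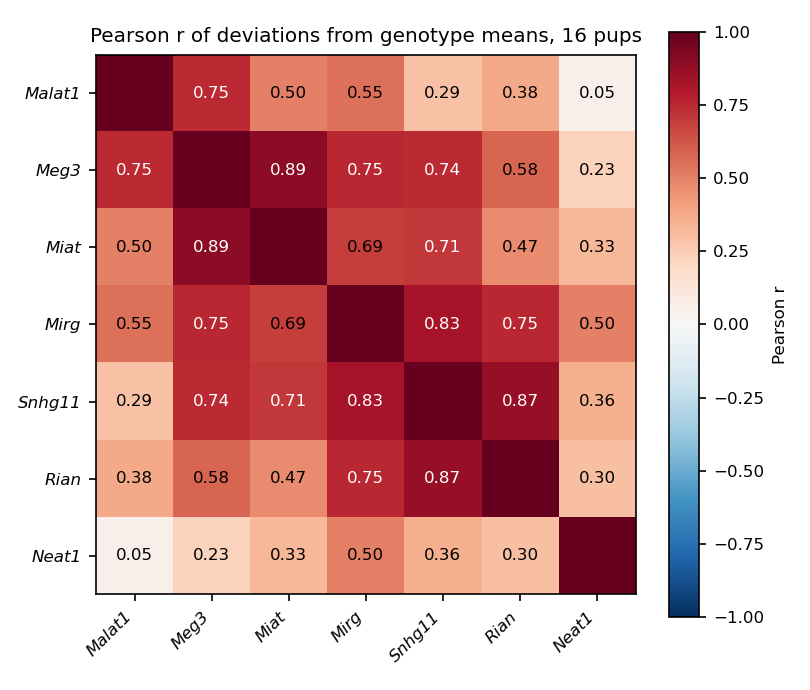
Pearson's r for each pair of the 7 measured lncRNAs (both axes, deviations from genotype means, 16 pups; red for positive). Meg3, Miat, Mirg, Snhg11 and Rian form the dark block from 0.47 to 0.89, and Neat1 has the palest row.

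A property of the whole library varied together with most members, Neat1 excepted. For each pup the slope of log2 CPM on log10 genomic span was computed over the 15137 genes. This span slope ranged from 0.868 to 0.973 (median 0.926) in ChR2-flfl pups and from 0.864 to 0.934 (median 0.883) in Avil-ChR2 pups. A higher slope means that genes with a long span took more of the reads. The difference of the span slope between genotypes was not tested. Malat1, with a span of only 6982 bp, had r = 0.60 and rho = 0.61 with it (permutation p = 0.030 and 0.025, adjusted p = 0.149 for r over 5 library measures), and r = 0.45 without the 2 farthest pups. Members had r = 0.81 (Rian), 0.71 (Meg3), 0.67 (Snhg11), 0.61 (Mirg), 0.57 (Miat) and 0.13 (Neat1, permutation p = 0.64) with the span slope. After its removal, r with Malat1 was 0.57 for Meg3, 0.29 for Mirg and 0.24 for Miat, and turned negative for Rian (-0.22), Snhg11 (-0.18) and Neat1 (-0.04). With the span slope as a covariate in limma, the Meg3 slope on Malat1 was 0.15 (SE 0.062, unadjusted p = 0.025, adjusted p = 0.468). The Malat1 genotype difference was -0.33 with this covariate and -0.53 without it. What underlies the span slope was not tested. The reads per pup, the number of genes with a value, the mitochondrial level and the first principal component had r between -0.04 and 0.25 with Malat1 (adjusted permutation p = 0.943 for each). The first principal component split the pups by the supplement's sex, below 0 in every female and above 0 in every male pup.

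**Figure D5:**
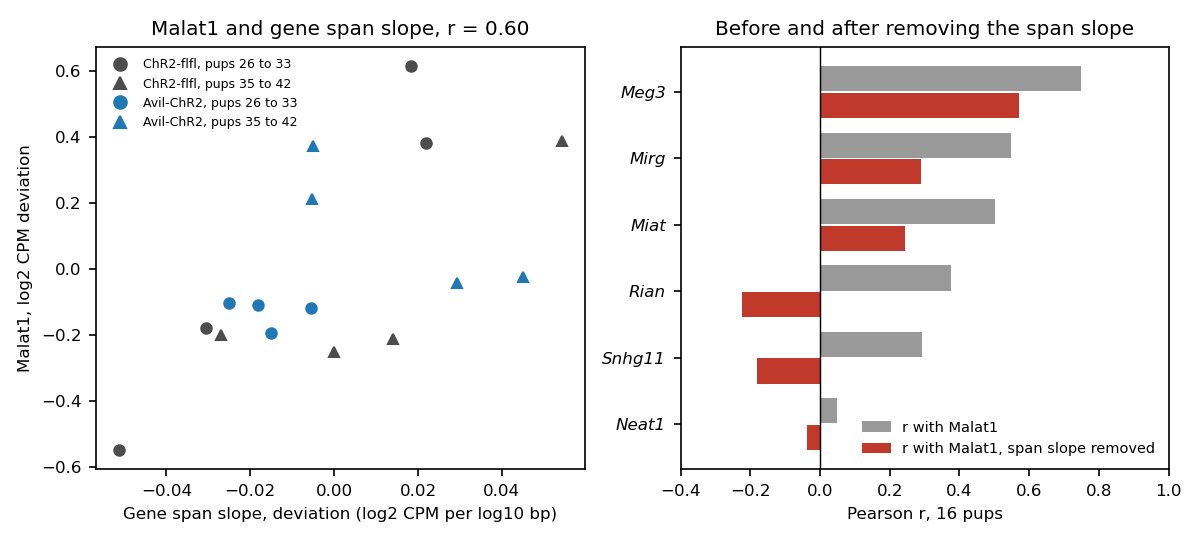
Left, deviation of the span slope (x axis, log2 CPM per log10 bp) and of Malat1 (y axis, log2 CPM) from the genotype mean, 1 point per pup (r = 0.60). Right, r of 6 lncRNAs with Malat1 before (grey) and after (red) the span slope was removed, where Meg3 keeps 0.57 and Rian, Snhg11 and Neat1 fall below 0.

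Malat1 aside, 15136 genes had a mean log2 level of at least 0, of which 1046 were lncRNA genes in RefSeq. The 10 of these genes most like Malat1 among pups included 5 lncRNAs. Those with the highest r were Copg2 (0.91, from the shorter of 2 entries of that name), Gm34196, Gpatch8, Gm3764, LOC101055630, Gm20754, Ipw, Cers4, A230057D06Rik and Catsperd (0.84). RefSeq lists as lncRNA Gm34196, Gm3764, Gm20754, Ipw and A230057D06Rik. The 8 genes called for the slope on Malat1 (limma) were Gm3764, LOC101055630, Copg2, A230057D06Rik, Ipw, Gm20754, Csmd1 and Grin2b, all with a positive slope from 0.33 to 0.79. Ipw and LOC101055630 lie at chr7:59619158-59678878 and chr7:59360489-59412606, both on the minus strand, in the imprinted Prader-Willi region. A230057D06Rik lies on the same strand at higher coordinates, chr7:61705850-61927574. Grin2b encodes an NMDA receptor subunit. None of the 8 was called with the span slope as a covariate (adjusted p of at least 0.157), and none without ChR2-flfl replicate 1 or 2, where 0 genes were called. The 5 lowest were Gm13420 (-0.90), Ubl3, Ndufs5, Trp53inp2 and Bub3 (-0.79). The 756 genes with the highest 5% of r had a median span of 58188 bp, the 756 with the lowest 17366 bp.

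All lncRNA genes except Malat1 were counted as a class, the other measured members included. Meg3, Mirg and Miat are thus among the positive slopes counted here. RefSeq gave a class for 20379 of the 21183 genes (96.2%). Of 1046 lncRNA genes with a mean log2 level of at least 0, 107 (10.2%) had a positive slope on Malat1 at an unadjusted p under 0.05 and 7 (0.669%) a negative slope. Among 13715 protein-coding genes it was 762 (5.56%) and 472 (3.44%). With no limit on the level the positive shares lay close together, at 211 of 3797 lncRNA genes (5.56%) and 838 of 16335 protein-coding genes (5.13%), and the negative shares were 1.53% and 3.33%. With the span slope as a covariate, the numbers at a mean log2 level of at least 0 were 75 positive and 31 negative for lncRNA genes, and 794 and 731 for protein-coding genes. This class was counted after the values of the members were seen, and no test of the class was made. lncRNA genes of this group had a median span of 19689 bp, protein-coding genes of 26560 bp.

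Proteins of the nuclear bodies were not called with Malat1. Over all genes, 8 of 21182 (0.0378%) were called for the slope and 2 of 21183 (0.00944%) for the genotype. Most lists this short would therefore hold none. Of 17 paraspeckle proteins 0 were called for the slope on Malat1 or for the genotype (limma), and the median r was 0.24, led by Cpsf7 (0.49), Taf15 (0.46) and Sfpq (0.45), the core paraspeckle protein. Of 20 nuclear speckle proteins 0 were called, with a median r of 0.13. At an unadjusted p under 0.05 (limma), 2 of these 20 and 0 of the 17 paraspeckle proteins had a positive slope, against 5.28% of all genes. The speckle core proteins Srrm2 and Son had r = 0.66 each, with unadjusted p of 0.0033 and 0.010 and limma adjusted p of 0.314 and 0.435. Son also had a log2 genotype difference of -0.09 (SE 0.030, limma adjusted p = 0.813). All-gene medians were -0.01 for r and 0.0020 for the genotype difference.

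Nor were the genomic neighbours, beside the same all-gene shares (0.0378% for the slope and 0.00944% for the genotype). Of 15 entries of the other Dlk1-Dio3 genes 0 were called, with a median r of -0.12, and Ppp2r3d had the lowest r (-0.60). Of 15 genes around Malat1 on chromosome 19 0 were called, with a median r of -0.20, from -0.58 for Cdc42ep2 to 0.60 for Ssh3. Of 34 other lncRNAs of the brain 0 were called for either test (limma), with a median r of 0.16. The closest was Ftx, an RNA of the X-inactivation center (r = 0.79, slope 0.36, SE 0.077, adjusted p = 0.099), and the most distant Tunar, a lncRNA of neural differentiation (r = -0.73, adjusted p = 0.314).

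Kcnq1ot1 could not be assessed. Its entry at chr7:143213111-143296547 on the minus strand lies inside that of Kcnq1 on the plus strand, at chr7:143106742-143427050. Of 3451 entries that lie inside a longer entry on the opposite strand only, 93.6% had no value in any pup, and of 2415 inside a longer entry on the same strand 95.6%, whereas it was 10.1% of the other 31064 entries. An empty entry in such a position is therefore no sign of a silent gene. The Kcnq1 entry, whose reads cannot be assigned to a strand because the strand setting is not given, ranged from 7.16 to 17.3 CPM (median 9.26) in ChR2-flfl pups and from 6.83 to 10.4 CPM (median 8.47) in Avil-ChR2 pups. Its r with Malat1 was 0.69 (slope 0.67, SE 0.17, unadjusted p = 0.0011, limma adjusted p = 0.205). The highest Kcnq1 value was in ChR2-flfl replicate 1, which also had the highest Malat1 level. Of 12 genes of the domain, Kcnq1 included, 0 were called for the slope or the genotype (all genes 0.0378% and 0.00944%), with a median r of 0.02. Cd81 (-0.62) and Cdkn1c (-0.55), a growth inhibitor that Kcnq1ot1 represses, had negative r, and Cars, a tRNA synthetase, had a positive one (0.47).

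Markers of other cells were not called with Malat1 either. Over 12 marker lists the summed level of GABA neuron markers had the lowest r with Malat1 (-0.57, permutation p = 0.019, adjusted p = 0.220 over the 12 lists), with 243 to 301 CPM in ChR2-flfl and 263 to 318 CPM in Avil-ChR2 pups. Microglia (-0.50), oligodendrocyte lineage (-0.50) and astrocyte markers (-0.47) had adjusted p = 0.220 each, and neuron markers r = -0.19 (adjusted p = 0.589). Of the 12 lists 2 had a positive r, sensory neurons of the ganglia (0.53, permutation adjusted p = 0.220) and hippocampal dentate gyrus (0.27, permutation adjusted p = 0.543). The first list holds Avil itself, and its sum was 19.9 to 31.4 CPM in ChR2-flfl and 59.9 to 68.8 CPM in Avil-ChR2 pups. Over its 6 genes taken singly the median r was -0.08. Avil (0.62) and Scn9a (0.49) had positive r, Calca (-0.30) and Trpv1 (-0.14) negative r. The part of cell composition in the Malat1 level was not tested.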

How the data were processed

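The authors sequenced poly(A)-selected, stranded mRNA libraries of 16 cortices, mapped them with SeqMan NGen (mm10, GRCm38, shortest read 50 bp) and normalised them with edgeR. The deposited values are TMM-normalised CPM by the authors, written with decimal commas (unit "other": CPM per entry, empty where no read was counted). The strand setting of the counting is not given in the sources used here. The authors' own comparison columns (fold changes, p-values) were not used.

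Members were matched by name. The members, lists and tests were chosen with earlier results of these data known. CPM were log2-transformed with no pseudocount. Missing values and those below -5 were set to -5 (4432 of 338928 values), and genes above -5 in at least 12 of 16 pups were tested (21183 of 36930 entries). limma 3.58.1 (R 4.3.3) with an intensity trend fitted genotype, then genotype plus the log2 level of Malat1, with Benjamini-Hochberg adjustment over all genes. Malat1 itself got no test. Pearson's r and Spearman's rho of deviations from genotype means were tested by 100000 two-sided permutations within genotypes, and within a genotype by all 40320 pairings. Exon lengths came from GENCODE, classes and sequences from RefSeq. Every CPM up to 20000 reads was a whole multiple of 1 read (tolerance 0.05 reads), which gave reads per pup. The counts behind a value were 220 to 444 reads for Neat1 and at least 1068 for each other member, so counting limits Neat1 most. Nothing in the sources says that pups came from separate litters, so p-values measure the spread between these pups. Named genes were the members, the 10 highest and 5 lowest r with Malat1 (mean log2 of at least 0), genes overlapping a member, and up to 4 per list with the largest absolute t for the slope. Alternatives changed the filter, pseudocount, normalization, covariates, weights and pups.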

Additional observations from a re-analysis of the deposited data

Results flagged for a closer look

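Of the 14 sets of 8 pups (7 members in each genotype) 1 had a sample far from the others. Miat in Avil-ChR2 replicate 4 was at 455 CPM, and the next pup of its genotype was at 533 CPM, a gap of 0.558 of the range of the 8 values, where Dixon's limit is 0.526. About 1 in 20 such sets is expected to be marked by chance. The same pup had the lowest Malat1 (179 CPM) and Meg3 (1631 CPM) of its genotype and is the pup with 2 different sex entries. The cause was not tested.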

How the results depend on the processing

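Under all 30 alternatives for the genotype and 34 for the slope on Malat1, 0 of the 6 lncRNAs were called at an adjusted p under 0.05. The Malat1 log2 difference stayed below 0, between -0.60 and -0.44 with each pup left out in turn. The number of lncRNAs with a positive slope and an unadjusted p under 0.05, 3 as reported, was 1 (Meg3) with the labels' sex, the span slope or the replicate block, in either run alone, in either genotype alone and with no genotype term, was 5 with array weights, and ranged from 1 to 5 with each pup left out. It was 2 (Meg3 and Mirg) with the supplement's sex and 4 (Meg3, Mirg, Rian and Snhg11) without the 2 farthest pups. In either run or genotype alone, with fewer pups per fit, the slopes were 0.20 to 0.29 for Miat and 0.17 to 0.30 for Mirg, against 0.22 and 0.20 with all pups. They were 0.15 and 0.16 with the labels' sex, 0.19 and 0.15 with the block, 0.11 and 0.11 with the span slope, and 0.10 and 0.06 with no genotype term. For the genotype, 2 lncRNAs (Mirg and Snhg11) had an unadjusted p under 0.05 with the span slope and 0 otherwise. Genes called for the slope, 8 as reported, were 19 with a mean log2 of at least 0, 34 with median centring, 17 with voom, 5 with the supplement's sex, 192 with no genotype term, 0 to 63 with each pup left out (63 without ChR2-flfl replicate 4), and 0 with the labels' sex, span slope, block, array weights, within runs or genotypes or without the 2 farthest pups. Genes called for the genotype were 1 to 3.

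Signs turned as follows. The Meg3 genotype difference was -0.0079 in pups 26 to 33, -4.4e-05 with voom and from -0.027 to 0.027 with each pup left out, and the ranges for Miat (-0.0080 to 0.067), Rian (-0.034 to 0.0014) and Snhg11 (-0.0033 to 0.080) also crossed 0. That of Rian was 0.040 with the span slope. With the span slope the slopes on Malat1 were -0.035 for Neat1, -0.036 for Rian and -0.079 for Snhg11 (r -0.036, -0.22 and -0.18), and with no genotype term that of Neat1 was -0.091 (r -0.15). With each pup left out it ranged from -0.19 to 0.17. The cause was not tested.

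Replicate numbers did not pair the pups. Same-numbered pups correlated between -0.34 and 0.39, 3 of 8 pairs above 0.1, and 2 of 16 pups correlated best with their own number. The replicate block gave 1 gene called between genotypes in place of 2 and 0 in place of 8 for the slope, and 0 lncRNAs called in either fit. The planned edgeR test on reads was not run, because the deposited values carry decimal commas and are no counts as deposited. The voom fit was chosen after seeing the data. CPM hold no input amount, and Neat1 rests on 220 to 444 reads per pup.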

Other observations

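Xist and Tsix, which overlap on opposite strands of the X chromosome, were looked at after their values were seen, beside the empty Kcnq1ot1 entry. Of the 8 female pups, 7 had no value for Xist, the RNA of the inactive X chromosome, and 719 to 932 CPM for Tsix. Avil-ChR2 replicate 3 had 571 CPM for Xist and 242 CPM for Tsix. The reads of the pair were thus placed differently in 1 of these libraries.

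The second Meg3 promoter of RefSeq, at chr12:109545148-109545447, held none of the 4 sets of letters. The promoter of Kcnq1ot1 held 3 CAAT boxes, that of Mirg 1 CAAT box and that of Miat 1 GC box, whereas those of Rian and Snhg11 held none of the 4.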
